A study of Mus musculus with 12 samples.

Results

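Keratins and Epcam were followed through the conversion of MTΔECad cells, a mesenchymal mouse breast cancer line, into fat cells. The group holds 7 keratin genes (Krt5, Krt7, Krt8, Krt14, Krt15, Krt18 and Krt19) and Epcam, 8 of the 17090 genes in the deposited count table, and was chosen by name, with the Entrez identifiers of the table matched to mouse symbols. RNA was sequenced at 0 h, before treatment, and then at 6 h and at days 3, 5, 7 and 10, with 2 libraries each from 2 independent experiments. By the protocol, the 6 h and day 3 cells had received the growth factor BMP2 alone at 200 ng/ml. Day 5 and day 7 cells had gone on to BMP2 with 2 µM rosiglitazone, a drug that activates the fat cell receptor PPARγ. Day 10 cells had spent the last 3 days in rosiglitazone without BMP2. All samples are of this single line, whose name marks the loss of E-cadherin. The samples used here include no untreated cells matched in time, so time in culture, cell density and treatment cannot be told apart.

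Keratins are the intermediate filament proteins of epithelial cells. A filament is built from pairs of an acidic type I keratin and a basic type II keratin, so each cell needs at least 1 of each kind. Krt8 (type II) and Krt18 (type I) pair in simple epithelia such as the luminal cells of the mammary gland, where Krt7 (type II) and Krt19 (type I) join them. Krt5 (type II) and Krt14 (type I) pair in basal and myoepithelial cells, and Krt15 (type I) is a keratin of basal and stem cell layers. Epcam is an adhesion protein of the epithelial cell surface and a common marker of carcinoma cells.

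Library totals ran from 12820802 to 17570366 counts. Levels are given as CPM (counts scaled to 1e+06 per library, with effective library sizes), with mean ± SD over 2 libraries, and as CPM per kilobase of the deposited gene length where genes are compared with each other. Cdh1, the E-cadherin gene, had between 1 and 20 counts in every library. The mesenchymal filament gene Vim stood at 2178 ± 203 CPM at day 10, against 7172 ± 179 CPM at 0 h. All 12 white adipocyte markers on a list rose between 0 h and day 10, led by the lipid carrier gene Fabp4 at 18830 ± 576 CPM at day 10, against 1.37 ± 0.07 CPM at 0 h. Of all tested genes 42.8% rose. Among the markers, 3 had 3 counts or fewer at 0 h, and only Fabp4, Cebpa and Lpl had enough counts there to pass the filter. The other markers were kept for testing through the later times at which they were high, so their rise was partly built in. Leukocyte and endothelial markers stayed low, with sums of 3.06 to 3.76 and 3.76 to 3.98 CPM at day 10, against 1.92 to 2.13 and 0.618 to 0.808 CPM at 0 h. Of 4 leukocyte genes in the table, Cd68 rose and Csf1r fell, and of 5 endothelial genes Pecam1 rose and Cdh5 fell. Pecam1, with 1 count at 0 h, passed the filter through the later times. Ptprc, the leukocyte common antigen gene, had 0 counts at day 10 and at 0 h. The part of other cells in the results was not tested.

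Of the 8 genes, 6 had enough counts to be tested. These were Krt7, Krt8, Krt14, Krt15, Krt18 and Epcam. Counts were compared with edgeR's quasi-likelihood test, with p-values adjusted by Benjamini and Hochberg over all 12740 genes tested and a call at an adjusted p below 0.05. All 6 differed between time points in the joint test, where 94.7% of all tested genes did. Each followed a course of its own: Krt7 fell up to day 7 and stayed low, Krt8 and Krt18 fell and came back in part, Krt14 dipped and then rose above its starting level, Krt15 appeared at days 5 and 7 and had largely gone at day 10, and Epcam appeared late at a low level. Krt15 and Epcam passed the filter on low counts through the times at which they were high, so for them a difference was partly built in.

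**Figure D1:**
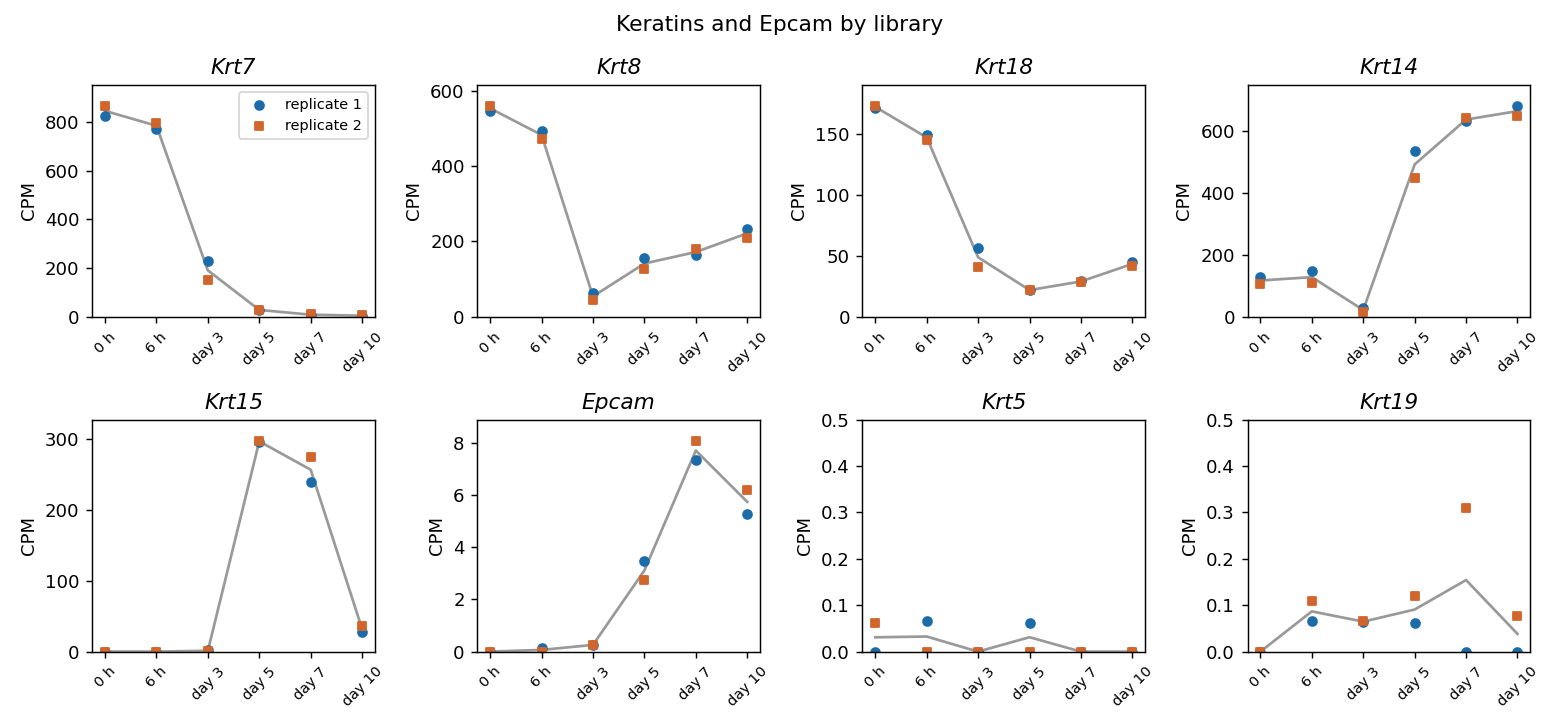
CPM (vertical axis, a scale of its own in each panel, starting at 0) of Krt7, Krt8, Krt18, Krt14, Krt15, Epcam, Krt5 and Krt19 at the 6 time points (horizontal axis). Points are libraries and the grey line joins the means of 2 libraries. Krt7 runs down to 4.81 CPM at day 10, Krt15 peaks at 297 CPM at day 5, and the highest value of Krt5 or Krt19 is 0.309 CPM.

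Krt7 was abundant at the start and nearly gone at the end. Its 2 libraries had 824.5 and 864.5 CPM at 0 h, 771 and 796.2 CPM at 6 h, 230.3 and 150.6 CPM at day 3, 26.97 and 29.83 CPM at day 5, 7.131 and 10.62 CPM at day 7, and 3.942 and 5.667 CPM at day 10. No 2 neighbouring time points overlapped. At day 10 it stood at 4.81 ± 1.22 CPM, against 844.5 ± 28.3 CPM at 0 h, which is a 174-fold fall (log2 fold change -7.44, SE 0.29, adjusted p = 1.6e-08). At day 10 against 0 h, 82.7% of all tested genes were called, 42.8% higher and 39.9% lower, and the 6 tested genes of the group were all called, 3 higher and 3 lower. With so large a share called, the count says little about the group itself. In bulk RNA, fewer cells of a type and less RNA per cell cannot be told apart. The fall of Krt7 was called between 6 h and day 3 (log2 fold change -2.04, SE 0.20, adjusted p = 2.32e-05), between day 3 and day 5 (-2.75, SE 0.22, adjusted p = 6.26e-06) and between day 5 and day 7 (-1.67, SE 0.26, adjusted p = 0.00128), all by edgeR. From day 7 to day 10 the change of -0.88 (SE 0.34) missed the threshold (adjusted p = 0.0956 by edgeR).

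Krt8 fell steeply to day 3 and then climbed back in part. It had 546.9 and 559.2 CPM at 0 h, 493.3 and 471.7 CPM at 6 h, 63.51 and 45.06 CPM at day 3, 156.4 and 126.6 CPM at day 5, 163.5 and 180.4 CPM at day 7, and 233 and 210.2 CPM at day 10. The day 3 libraries were the lowest, and those of day 10 lay between them and those of 0 h with no overlap. At day 3 Krt8 was 10.2-fold lower than at 0 h (log2 fold change -3.35, SE 0.15, adjusted p = 1.93e-09 by edgeR). Day 5 was 2.6-fold above day 3 (1.38, SE 0.14, adjusted p = 4.6e-06 by edgeR). At day 10 Krt8 averaged 222 ± 16.2 CPM, against 553 ± 8.76 CPM at 0 h, a log2 fold change of -1.32 (SE 0.14, adjusted p = 2.23e-06 by edgeR).

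Krt18, the usual partner of Krt8, fell for longer and came back less. Its libraries had 171.6 and 173 CPM at 0 h, 148.9 and 145.5 CPM at 6 h, 56.71 and 41.05 CPM at day 3, 21.69 and 22.26 CPM at day 5, 29.42 and 28.7 CPM at day 7, and 45.33 and 41.59 CPM at day 10. Day 5 was the lowest point, and day 7 overlapped neither day 5 nor day 10. From day 3 to day 5, the step at which Krt8 rose, Krt18 changed by -1.15 on the log2 scale (SE 0.12, adjusted p = 3.45e-07 by edgeR). It then rose by 0.40 to day 7 (SE 0.12, adjusted p = 0.0165) and by 0.58 to day 10 (SE 0.12, adjusted p = 0.00173 by edgeR). The call at day 7 against day 5 was lost without any 1 of the 4 libraries compared, with adjusted p = 0.071 and 0.0697 without day 5 replicate 1 and 2, and 0.0844 and 0.0542 without day 7 replicate 1 and 2. At day 10 Krt18 stood at 43.5 ± 2.65 CPM, against 172 ± 1.01 CPM at 0 h (log2 fold change -1.99, SE 0.11, adjusted p = 6.41e-11 by edgeR).

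The balance within this pair moved with time. Per kilobase, Krt8 was 2.47 and 2.51 times the level of Krt18 in the 0 h libraries and 2.57 and 2.51 times at 6 h. The ratio was 0.869 and 0.851 at day 3. It was 5.59 and 4.41 at day 5, 4.31 and 4.88 at day 7, and 3.99 and 3.92 at day 10. Day 3 was thus the only one of the 6 time points at which Krt18 lay above Krt8 in both libraries. The ratio was not tested.

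At 6 h none of the 6 tested genes was called against 0 h by edgeR (0.746% of all tested genes were). Krt18 had an unadjusted p of 0.0388 (log2 fold change -0.23, SE 0.10), the only one of the 6 under 0.05, and DESeq2 called none of them either. For Krt7 and Krt8, also not called, the log2 fold changes at 6 h were -0.11 and -0.20. At day 3 against 0 h, 68.1% of all tested genes were called, 33.1% higher and 35.0% lower, and all 6 genes of the group were called, 2 higher (Krt15 and Epcam) and 4 lower. Against 6 h, with 68.4% of all tested genes called (32.9% higher and 35.5% lower), 5 were called at day 3, Krt15 higher and the other 4 keratins lower, and Epcam, at 8 counts against 2, was not (adjusted p = 0.0785 by edgeR). Without 6 h replicate 1, which held both of the 6 h counts, Epcam was called here too (log2 fold change 5.02 in place of 1.98, adjusted p = 0.0199 by edgeR). Against 0 h, day 5 had 77.9% of all tested genes called (40.3% higher and 37.6% lower) and day 7 had 81.1% (41.7% higher and 39.4% lower). At both times all 6 genes of the group were called, Krt14, Krt15 and Epcam higher and Krt7, Krt8 and Krt18 lower. These comparisons share the 0 h libraries.

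**Figure D2:**
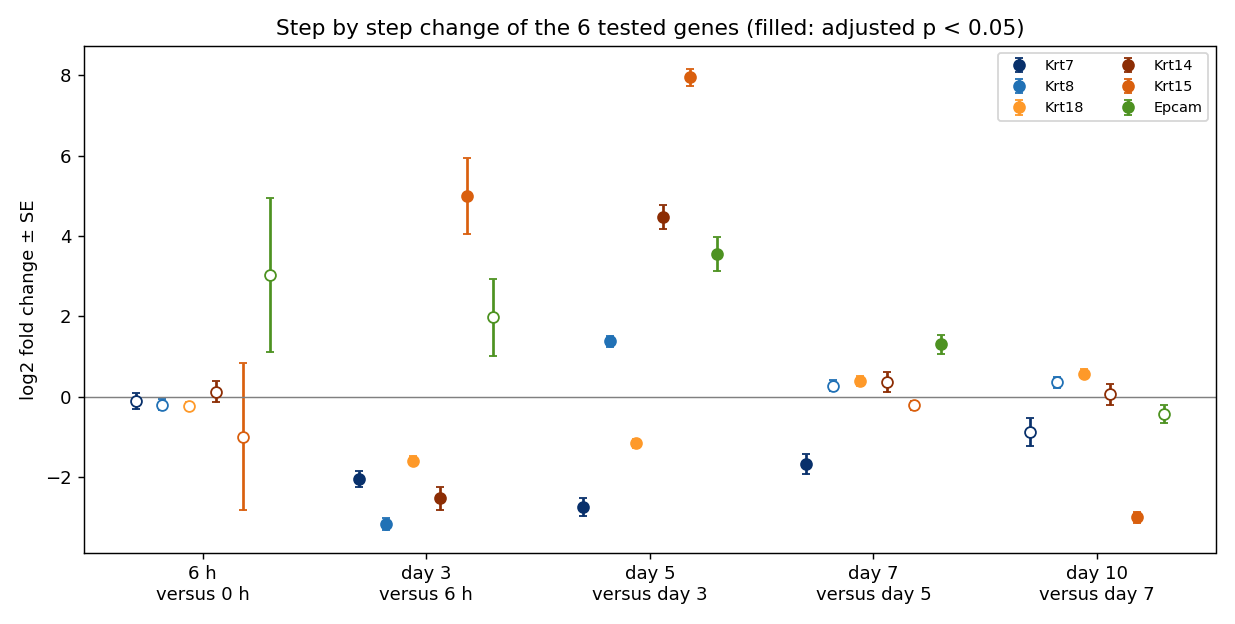
Log2 fold change (vertical axis) with its standard error for the 6 tested genes at each of the 5 steps between neighbouring time points (horizontal axis), from the fit to all 12 libraries. Filled points were called at an adjusted p below 0.05. At day 5 against day 3 all 6 are filled, with Krt15 highest at 7.95 and Krt7 lowest at -2.75; the open points of Krt15 and Epcam at 6 h rest on 3 counts or fewer.

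The upstream sequences of Krt7, Krt8, Krt18 and Epcam are shown because each holds an E-box of the letters CAGGTG, the kind that the EMT repressors of the Snail and ZEB families are known to bind. Each line gives the 250 bases before the RefSeq gene start in GRCm38.p6 (the assembly also called mm10), 5′ to 3′ along the gene, with the E-box in capitals on whichever strand it lies (CACCTG on the other strand). The windows are chr15:101412153-101412402 on the plus strand for Krt7, chr15:102004343-102004592 on the minus strand for Krt8, chr15:102027966-102028215 on the plus strand for Krt18 and chr17:87635729-87635978 on the plus strand for Epcam.
Krt7: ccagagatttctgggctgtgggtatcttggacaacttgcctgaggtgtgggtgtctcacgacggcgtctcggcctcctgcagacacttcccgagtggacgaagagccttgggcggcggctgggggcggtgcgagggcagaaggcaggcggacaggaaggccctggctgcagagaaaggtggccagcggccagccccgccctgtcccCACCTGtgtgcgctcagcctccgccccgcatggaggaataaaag
Krt8: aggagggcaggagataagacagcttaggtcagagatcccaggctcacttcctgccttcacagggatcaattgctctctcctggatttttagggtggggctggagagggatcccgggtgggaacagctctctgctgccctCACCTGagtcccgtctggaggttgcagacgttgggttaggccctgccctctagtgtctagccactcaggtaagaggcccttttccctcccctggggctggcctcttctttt
Krt18: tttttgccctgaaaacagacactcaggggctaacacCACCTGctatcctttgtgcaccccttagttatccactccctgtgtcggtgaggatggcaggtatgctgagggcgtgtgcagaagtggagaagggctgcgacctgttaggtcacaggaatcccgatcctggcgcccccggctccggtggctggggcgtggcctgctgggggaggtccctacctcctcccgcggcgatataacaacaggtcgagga
Epcam: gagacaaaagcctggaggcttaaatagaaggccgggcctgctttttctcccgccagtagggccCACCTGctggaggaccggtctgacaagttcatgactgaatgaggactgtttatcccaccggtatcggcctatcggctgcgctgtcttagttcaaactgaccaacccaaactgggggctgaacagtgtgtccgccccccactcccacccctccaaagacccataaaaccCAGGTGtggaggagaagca
The first base of the E-box lay 44 bases before the start of Krt7, 111 before that of Krt8 and 214 before that of Krt18, and Epcam had a pair at 187 and 19 bases.

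Of the 8 genes, 6 had a promoter entry in the RefSeq table, and the Krt14 entry lies inside the gene and was left out. All 5 windows searched (Krt5, Krt7, Krt8, Krt18 and Epcam) held CAGGTG on either strand, against 17.2% of 32851 promoter windows of the same length and 6 of 15 windows of other keratins of the table. The window of Krt5, which had 3 counts in all, held it as well, 128 bases before the start. A further 5 motifs were searched on both strands. The GC box GGGCGG was in 2 of the 5 windows (32.7% of all), 4 times in Krt7 and once in Epcam. The nuclear receptor half-site AGGTCA was in 2 (14.0% of all), Krt8 and Krt18, and the SMAD1/5 motif GGCGCC in 1 (9.59% of all), Krt18. Neither the TATA box TATAAA (12.4% of all) nor the AP-1 motif TGANTCA (6.75% of all) was in any of the 5. These matches describe letters in a window and not binding.

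Krt14, the type I keratin of basal cells, dipped at day 3 and then became the most abundant keratin. Its libraries had 130 and 104.6 CPM at 0 h, 148.4 and 108 CPM at 6 h, 28.83 and 15.52 CPM at day 3, 535.5 and 447.8 CPM at day 5, 631.8 and 640.9 CPM at day 7, and 680 and 647.2 CPM at day 10. The 0 h and 6 h libraries overlapped, day 3 lay below all others, and days 5, 7 and 10 lay above all others. At day 3 it was 5.27-fold lower than at 0 h (log2 fold change -2.40, SE 0.29, adjusted p = 0.000187 by edgeR). At day 5, after 2 days with rosiglitazone, it was 22.1-fold above day 3 (log2 fold change 4.47, SE 0.30, adjusted p = 6.59e-06 by edgeR). At this step 65.0% of all tested genes were called, 34.0% higher and 31.0% lower, and all 6 genes of the group were called, 4 higher and 2 lower. Neither later step was called for Krt14 (adjusted p = 0.294 for day 7 against day 5 and 0.892 for day 10 against day 7, both edgeR). At day 10 it averaged 664 ± 23.2 CPM, against 117 ± 17.9 CPM at 0 h, a 5.66-fold rise (SE of the log2 fold change 0.27, adjusted p = 5.83e-05 by edgeR).

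Krt15 was the most transient of the group. Each 0 h library held 1 count, the 6 h libraries held 1 and 0, and those of day 3 held 26 and 11. There were then 4767 and 4993 at day 5, 3459 and 4447 at day 7, and 305 and 480 at day 10. Its mean was 1.19 ± 0.66 CPM on day 3, 297 ± 1.15 CPM on day 5, 257 ± 24.8 CPM on day 7 and 32.0 ± 6.67 CPM on day 10. From day 3 to day 5 it rose 247-fold (log2 fold change 7.95, SE 0.21, adjusted p = 2.18e-12 by edgeR). Between day 7 and day 10, when BMP2 was left out, it fell 7.98-fold (-3.00, SE 0.14, adjusted p = 1.14e-08 by edgeR). At day 10 against 0 h, where it had 2 counts, the ratio was 483 (95% exact counting interval 133 to 3990, which covers counting error only). Krt14 and Krt15 rose at the same step but parted at the last: Krt14 was 1.81 and 1.5 times Krt15 per kilobase at day 5, 2.64 and 2.33 times at day 7, and 24.9 and 17.6 times at day 10.

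Krt5, the usual type II partner of Krt14, was not expressed at a measurable level. It had 3 counts over all 12 libraries, 1 each in 0 h replicate 2, 6 h replicate 1 and day 5 replicate 1, and none at days 3, 7 and 10, where Krt14 reached 680 CPM. Krt19, the small type I keratin of luminal cells, had at most 5 counts in a library (day 7 replicate 2) and 0 counts at 0 h, and its values overlapped between day 10 and 0 h. Neither gene passed the filter and neither was tested. For both, a change could not be detected at this depth.

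Epcam came up late and stayed low. Neither 0 h library held a count, and those of 6 h held 2 and 0. Later libraries held 4 and 4 counts (day 3), 56 and 46 (day 5), 106 and 131 (day 7) and 59 and 81 (day 10). Its mean was 0.259 ± 0.0064 CPM on day 3, 3.11 ± 0.52 CPM on day 5, 7.71 ± 0.53 CPM on day 7 and 5.75 ± 0.65 CPM on day 10. Day 7 was at least 76.8-fold and day 10 at least 57.4-fold higher than 0 h, against a floor of 3 counts over the 0 h group. Epcam rose by 3.55 on the log2 scale from day 3 to day 5 (SE 0.42, adjusted p = 2.14e-06 by edgeR) and by 1.31 from day 5 to day 7 (SE 0.23, adjusted p = 0.000386 by edgeR). From day 7 to day 10 the change of -0.42 (SE 0.22) was not called (adjusted p = 0.179 by edgeR). Per kilobase of the deposited lengths, Epcam at its day 7 mean of 3.74 CPM was below each of the 5 tested keratins at day 7, though not below Krt7 with the longest Krt7 transcript (2.17 CPM). At day 10 its libraries, at 2.57 and 3.01 CPM per kilobase, overlapped those of Krt7, at 2.49 and 3.57.

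At day 7 against day 5, 37.8% of all tested genes were called, 19.0% higher and 18.8% lower. In the group 3 genes were called, Krt18 and Epcam higher and Krt7 lower. At day 10 against day 7, 28.4% of all tested genes were called, 15.1% higher and 13.2% lower. Here Krt18 was called higher and Krt15 lower. Krt8 was 1.29-fold higher at day 10 than at day 7 with no overlap, but missed the threshold (log2 fold change 0.37, SE 0.14, adjusted p = 0.0694 by edgeR). Without day 3 replicate 1 or without day 3 replicate 2, libraries of neither time point, Krt8 (adjusted p = 0.00555 and 0.00549) and Krt7 (0.00505 and 0.00494) were called at this step too, for 4 genes in place of 2.

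The order of the levels turned over. Per kilobase, Krt7 at 532 ± 17.8 CPM stood highest at 0 h, followed by Krt8 at 306 ± 4.85, Krt18 at 123 ± 0.72 and Krt14 at 68.2 ± 10.4, with no overlap between neighbours. The place of Krt7 rests on the gene length at every time point: with the longest GENCODE transcript, which is 4094 bases against the deposited 1586, it would be at 206 CPM per kilobase at 0 h and Krt8 at 282.5. With that transcript Krt7 would still lead at day 3 at 46.5, with merged exons it would be at 27.0 and below Krt18 at 34.0, and at day 5 it would be at 6.94 and 4.03 with these lengths, below Krt18 at 15.3. With the deposited lengths, Krt7 led at day 3 with 120 ± 35.6 CPM per kilobase, Krt18 (34.9 ± 7.91) and Krt8 (30.1 ± 7.23) overlapped, and Krt14 came last of the 4 at 12.9 ± 5.47. At day 5 Krt14 led with 286 ± 36.1, ahead of Krt15 at 173 ± 0.67, Krt8 at 78.4 ± 11.7, Krt7 at 17.9 ± 1.27 and Krt18 at 15.7 ± 0.28. At day 10 the order was Krt14 at 386 ± 13.5, Krt8 at 123 ± 8.96, Krt18 at 31.0 ± 1.89 and Krt15 at 18.6 ± 3.88, with Krt7 and Epcam last.

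Seen as a pool, keratin mRNA shrank and then grew back with another makeup. The table held 31 keratin genes. Summed per kilobase they reached 1043 and 1060 CPM in the 0 h libraries, 972 and 948.5 at 6 h, 242.1 and 161.8 at day 3, 615.4 and 548.3 at day 5, 681.2 and 700.7 at day 7, and 820.7 and 778.9 at day 10. Type II keratins made up 80.7% and 82.3% of this sum at 0 h and 75.0% and 74.8% at day 3. At day 5 they were down to 17.3% and 16.4%, with Krt14 alone at 50.6% and 47.5% and Krt15 at 28.0% and 31.6%. At day 10 type II keratins were back to 44.6% and 44.0%, but Krt7 gave 0.303% and 0.459% of the pool and Krt8 gave 15.7% and 14.9%. The rest was mostly Krt79, a type II keratin outside the group, at 28.6% in both day 10 libraries. The 7 keratins of the group therefore covered 97.9% and 98% of the pool at 0 h, and 70.1% and 70.3% at day 10. Both the sums and the shares depend on the gene lengths used, which for Krt7 differ between annotations as given above. With its longest transcript, Krt7 would add 206 in place of 532 CPM per kilobase to the 0 h sum. At day 10 it would add 1.17 in place of 3.03. Whether the 0 h or the day 10 sum is the larger thus rests on the length used for Krt7.

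**Figure D3:**
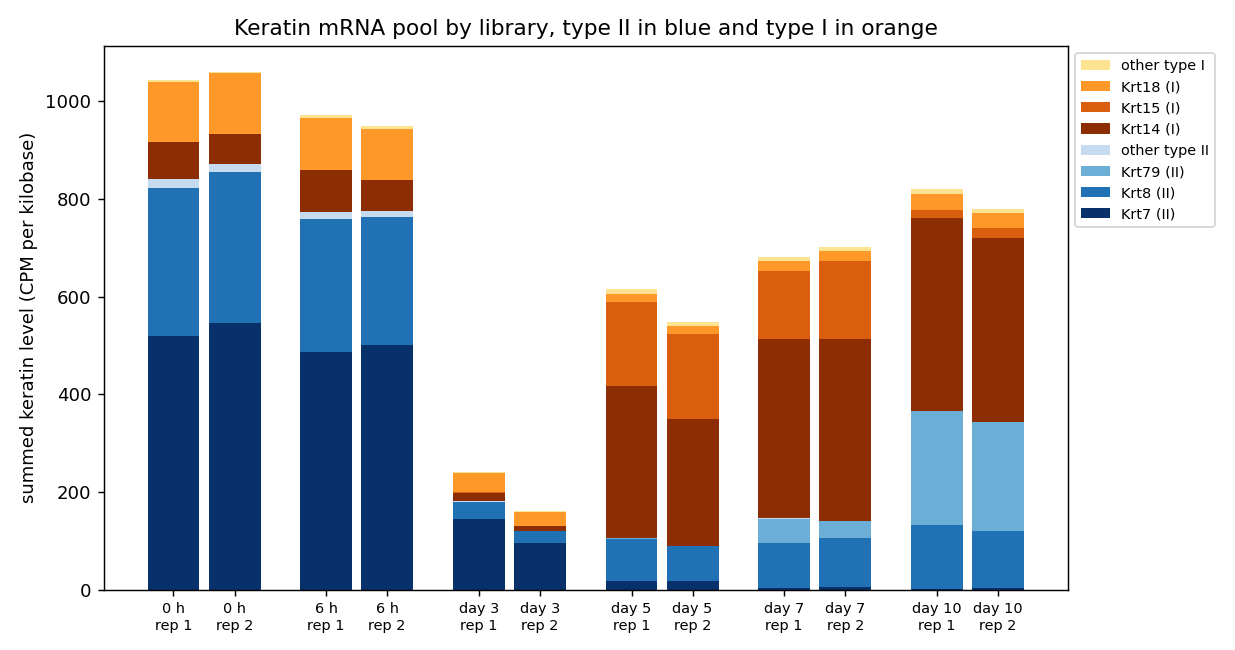
Summed level of all 31 keratin genes in CPM per kilobase (vertical axis, from 0), 1 bar for each of the 12 libraries in time order, split into Krt7, Krt8, Krt79 and other type II keratins in blue and Krt14, Krt15, Krt18 and other type I keratins in orange. The bars are 1043 and 1060 high at 0 h, lowest at day 3 (242.1 and 161.8), and mostly orange at days 5 and 7; Krt79 enters as a light blue block at days 7 and 10.

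Among the 24 other keratins of the table, 7 passed the filter, of which 4 rose and 1 fell between 0 h and day 10 (median log2 fold change 1.14). Over all tested genes 42.8% rose and 39.9% fell, with a median of 0.06. Of the 4 that rose, Krt79, Krt9 and Krt36 had 1 count or none at 0 h and passed the filter through the times at which they were high, so their rise and the median were partly built in. Krt79, known from skin appendages, had 1 count at 0 h and 480 ± 17.1 CPM at day 10, a ratio of 14300 (95% exact counting interval 2560 to 563000). It was at 3.47 ± 2.12 CPM at day 5 and 88.4 ± 25.7 CPM at day 7. Krt80, a type II keratin, fell to 0.211 ± 0.082 CPM at day 10, against 31.1 ± 1.54 CPM at 0 h (log2 fold change -7.18, SE 0.25, adjusted p = 5.39e-14 by edgeR). With 5 counts at day 10, Krt80 passed the filter through the earlier times, so its fall was partly built in. Krt9, a type I keratin of palm and sole skin, was at least 38.1-fold higher at day 10 (3.80 ± 0.69 CPM), being absent from the 0 h counts. The 17 untested keratins had at most 62 counts each over the 12 libraries.

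Most keratin genes lie in clusters. In mm10 (RefSeq GRCm38.p6 positions), the type II cluster is on chromosome 15 with Krt7 at chr15:101412403-101427806, Krt5 at chr15:101707069-101712905 and Krt8 at chr15:101996711-102004342, and Krt18 at chr15:102028216-102032026 is the only type I keratin there, 23873 bases from Krt8. The type I cluster on chromosome 11 holds Krt15 at chr11:100131759-100135949, Krt19 at chr11:100140810-100145926 and Krt14 at chr11:100203162-100207510. Epcam is at chr17:87635979-87651127. Krt80, which fell, is the nearest table keratin to Krt7 on its upstream side, 42240 bases away. Krt79, which rose, is separated from Krt8 by Krt78, which had 3 counts in all. Krt13, the neighbour of Krt15 at 10192 bases, was transient too, with 7.74 ± 0.31 CPM at day 5 (adjusted p = 7.23e-06 against day 3 by edgeR) and 0.434 ± 0.361 CPM at day 10, against 0.203 ± 0.025 CPM at 0 h (adjusted p = 0.147 for day 10 by edgeR). Krt19, almost silent, lies 4860 bases from Krt15 on its other side, on the same strand. Neighbours in the clusters thus moved alike in some places and apart in others.

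**Figure D4:**
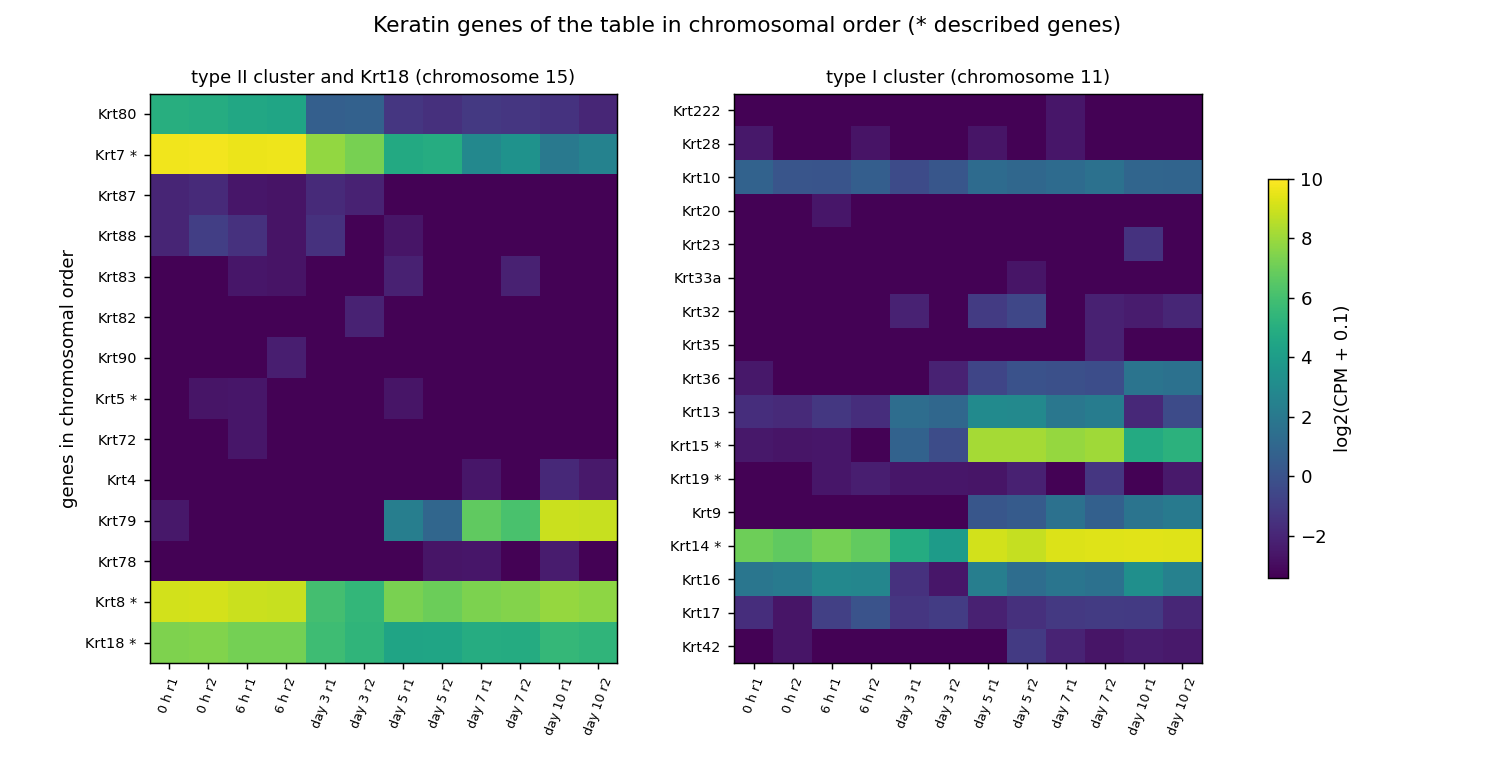
Keratin genes of the table in chromosomal order (vertical axis, spacing not to scale) by library (horizontal axis), coloured by log2(CPM + 0.1); asterisks mark the 7 keratins of the group. Krt80 and Krt7, at the top of the left panel, darken together after 6 h, Krt79 and Krt15 light up from day 5, and Krt5 and Krt19 stay dark throughout.

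Some keratin mRNAs share sequence, which can move reads between genes. Of all 50-base windows in the longest GENCODE transcript, 29.7% occurred in another gene for Krt8 (26.9% in the pseudogene Krt8-ps, which the table does not list), 14.4% for Krt14 (11.4% in Krt16 and 3.34% in Krt17) and 12.2% for Krt5. For Krt7, Krt15 and Krt18 the share was 0.222%, 0.666% and 0.72%, and for Krt19 and Epcam 0. How the authors' counting treated reads with several matches is not given in the sources used here, so the levels of Krt8 and Krt14 are less certain than those of the others. Krt16 held 48 and 68 counts at 0 h, 109 and 120 at 6 h, 4 and 1 at day 3, 78 and 43 at day 5, 50 and 48 at day 7 and 106 and 71 at day 10. Like Krt14 it was lowest at day 3, 22.9-fold below 0 h (adjusted p = 5.41e-06 by edgeR), and its 21.8-fold rise to day 5 (adjusted p = 7.2e-06 by edgeR) was close in size to the 22.1-fold rise of Krt14. Other changes were unlike in size. The fall from 0 h to day 3 was 5.27-fold for Krt14, and day 10 was 1.9-fold above 0 h for Krt16 and 5.66-fold for Krt14. Whether reads of Krt14 were counted for Krt16 was not tested.

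Among genes for proteins that anchor keratin filaments, more were called lower than higher. Of 18 genes of desmosomes and hemidesmosomes on a list, 17 were in the table and 16 tested, and 12 fell and 2 rose between 0 h and day 10 (median log2 fold change -1.70), where 39.9% of all tested genes fell and 42.8% rose (median 0.06). The plakophilin gene Pkp1 fell to 0.179 ± 0.253 CPM at day 10, against 8.18 ± 0.38 CPM at 0 h (log2 fold change -5.56, SE 0.50, adjusted p = 1.67e-08 by edgeR). Dsc2, a desmosomal cadherin gene, fell to 2.46 ± 0.31 CPM, against 39.1 ± 0.76 CPM, and Dsg2, another, had 1 count at day 10, against 15 at 0 h. Pkp1, Dsg2 and the collagen gene Col17a1 had 4, 1 and 9 counts at day 10. They passed the filter through earlier times at which they were higher, so their falls and the median were partly built in. The most abundant members were Dst, the dystonin gene, at 627 ± 32.5 CPM at day 10, against 914.5 ± 38.6 CPM at 0 h, and Cd151, a tetraspanin gene of hemidesmosomes, at 510 ± 23.9 CPM, against 420 ± 0.46 CPM.

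Genes whose products act with or on Epcam were mixed. Of 16 listed partners and proteases, 14 were in the table and 11 tested, with 3 higher and 6 lower at day 10 than at 0 h (median -0.35). Of all tested genes 82.7% were called in this comparison, 42.8% higher and 39.9% lower (median 0.06). Cldn7, the claudin that binds Epcam, had 1 count at day 10 and 0 at 0 h. Cd44, a hyaluronan receptor, fell to 18.4 ± 0.48 CPM at day 10, against 485 ± 9.60 CPM at 0 h (log2 fold change -4.72, SE 0.091, adjusted p = 6.56e-17 by edgeR), and Cd9, a tetraspanin gene, to 190.4 ± 23.7 CPM, against 324 ± 15.9 CPM. Fhl2, which binds the cleaved tail of Epcam, fell to 1.32 ± 0.088 CPM, against 129.5 ± 6.82 CPM, and the claudin gene Cldn1 to 0.384 ± 0.218 CPM, against 8.38 ± 0.12 CPM. In the tight junction and polarity list, 12 of 21 genes were tested, 3 higher and 5 lower (median -0.24). With so large a share of all genes called, neither count says much about its list. Tjp3 passed the filter through the later times at which it was high. Cldn1, Cldn3 and Cgn, with 9, 2 and 8 counts at day 10, passed it through the earlier times. These changes were therefore partly built in. Tjp3, at 62 counts against 0, was at least 25.4-fold higher, whereas Cldn3 had 2 counts at day 10, against 126 at 0 h, and Cgn, the cingulin gene, was at 0.332 ± 0.037 CPM, against 8.94 ± 1.37 CPM. Tjp1, the abundant ZO-1 gene, was not called (161 ± 2.87 CPM at day 10, against 178.5 ± 1.78 CPM at 0 h, adjusted p = 0.0687 by edgeR).

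Several transcription factors of epithelial cells were higher at day 10. Of 20 epithelial transcription and splicing factors on a list, 18 were in the table and 9 tested, and 7 rose and 1 fell between 0 h and day 10 (median 1.24), where 42.8% of all tested genes rose and 39.9% fell. Sox10 passed the filter through the later times at which it was high. Trp63, which drives Krt5 and Krt14 in basal epithelium, was at 51.1 ± 8.01 CPM at day 3 and 23.5 ± 3.24 CPM at day 10, against 1.44 ± 0.58 CPM at 0 h (log2 fold change 3.99 at day 10, SE 0.38, adjusted p = 3.51e-06 by edgeR). It was thus highest at day 3, when Krt14 was lowest. Gata3, a luminal factor also active in fat precursors, was at 162.5 ± 16.2 CPM at day 5 and 80.5 ± 1.73 CPM at day 10, against 34.0 ± 0.0020 CPM at 0 h. Sox10, at 118 counts against 0, was at least 48.4-fold higher at day 10, Sox9 was at 19.0 ± 1.64 CPM, against 13.3 ± 0.57 CPM, and Klf5 fell to 0.889 ± 0.39 CPM, against 12.7 ± 3.73 CPM. Of the others, Grhl2 had 4 counts at 0 h and 0 at day 10, and Foxa1 and Elf3 had 0 counts at both.

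Basal and luminal mammary genes outside the group were mixed. All 8 tested of 15 basal and myoepithelial genes were called at day 10 against 0 h, 5 higher and 3 lower (median 1.79), where 82.7% of all tested genes were called, 42.8% higher and 39.9% lower. The share called is thus near that of all genes, and Oxtr passed the filter through the times at which it was high. Lamb3 and the laminin gene Lama3 were low at 0 h too, at 17 and 9 counts over 2 libraries. Lama3 was thus below the filter's minimum count in both 0 h libraries, and Lamb3, at 6 counts, in 0 h replicate 2. The rises of Oxtr and Lama3 and the median were therefore partly built in, and that of Lamb3 may be. The oxytocin receptor gene Oxtr was at least 678-fold higher (0 counts at 0 h, 68.0 ± 5.15 CPM at day 10) and the laminin gene Lamb3 rose to 194 ± 18.1 CPM, against 0.589 ± 0.31 CPM. The contractile genes Acta2 and Tagln fell to 33.9 ± 6.15 and 7.51 ± 1.42 CPM, against 2026 ± 30.4 and 158 ± 0.55 CPM. Of 18 luminal genes 9 were tested, 3 higher and 5 lower (median -1.02). Of the 3 higher, Prlr passed the filter through the times at which it was high, so its rise was partly built in. The other higher genes, Cited1 and Erbb3, had 9 and 17 counts at 0 h, too few for both 0 h libraries to pass the filter. Their rise may thus be partly built in too. Aldh1a3 had 0 counts at day 10 and was at least 52.8-fold lower, the growth factor gene Areg fell to 4.01 ± 0.61 CPM, against 76.5 ± 5.20 CPM, and Mfge8 to 115 ± 13.5 CPM, against 259 ± 27.8 CPM. The prolactin receptor gene Prlr, at 96 counts against 0, was at least 39.4-fold higher. The keratinocyte list left 3 of 15 genes to test, with Calml3 at least 252-fold higher (25.3 ± 0.35 CPM at day 10) and the protease gene Klk10 lower, at 0.364 ± 0.135 CPM against 71.8 ± 8.67 CPM. Calml3, with 0 counts at 0 h, also passed the filter through the times at which it was high. Aldh1a3 and Klk10, with 0 and 9 counts at day 10, passed it through the earlier times, so their falls were partly built in.

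Filament genes other than keratins were also more often called lower than higher. Of 14 genes on a list of intermediate filaments and lamins, 9 were tested, and 6 fell and 2 rose by day 10 (median -1.72), where 39.9% of all tested genes fell and 42.8% rose. The 6 include Syne1, a nuclear envelope gene on the list that is neither a filament nor a lamin gene. Its fall was small (log2 fold change -0.30, SE 0.10, adjusted p = 0.0139 by edgeR). Gfap passed the filter through the late times at which it was high, and Des, the other gene that rose, had 6 counts at 0 h. Besides Vim (log2 fold change -1.72, SE 0.13), the nestin gene Nes fell to 14.5 ± 1.90 CPM, against 1191 ± 15.5 CPM, and the lamin genes Lmnb1 and Lmna to 1.80 ± 0.39 and 357 ± 13.1 CPM, against 117 ± 2.09 and 1566 ± 13.8 CPM. Gfap, the glial filament gene, was at least 11.9-fold higher, at 29 counts against 0. Of 12 mesenchymal markers 11 were tested, with 6 lower and 4 higher at day 10 (median -0.77), with 42.8% higher and 39.9% lower among all tested genes. The higher ones were the EMT factor genes Zeb1 (107 CPM, against 94.1 CPM), Zeb2 (205, against 153 CPM) and Twist1 (33.5, against 16.6 CPM) and the matrix gene Sparc (1051, against 805 CPM). Among the lower ones were the tenascin gene Tnc at 49.6 ± 6.54 CPM, against 318 ± 85.8 CPM, S100a4 at 364, against 2070 CPM, the N-cadherin gene Cdh2 at 88.9, against 294 CPM, and the fibronectin gene Fn1 at 509, against 1646 CPM. Fn1 was not lower throughout, with 9794 ± 3968 CPM at day 3. The EMT factor genes did not move as one. Snai1 was called lower (5.82, against 9.90 CPM, adjusted p = 0.00021 by edgeR). Snai2 was not called (8, against 7.47 CPM, adjusted p = 0.616 by edgeR).

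The tested genes with the most similar course were found by the root mean square difference in log2 CPM over the 12 libraries, after centring each gene on its own mean, among 12108 genes. For Krt8 these were the tubulin gene Tubb4b (0.21), the cell cycle phosphatase gene Cdc25b (0.22) and the transcription factor gene E2f1 (0.29), where Krt8 itself spanned 3.63 log2 units. Krt18, with a span of 2.99, was closest to Slc35g1 (0.19), Tnfrsf23 (0.21) and Mecom (0.22). Krt7, with a span of 7.73, was closest to Spn (0.43), Timp1 (0.45) and Ankrd1 (0.47). For Krt14, with a span of 5.44, they were the arginine deiminase gene Padi2 (0.23), the collagen gene Col6a3 (0.36) and Pthlh (0.37). Krt15, with a span of 11.14, had no close match, the nearest being Oxtr (0.98), Tlr8 (1.26) and Agt (1.30). Oxtr was at 68.0 ± 5.15 CPM at day 10, against 116 ± 7.24 CPM at day 7. For Epcam, with a span of 5.96, they included the creatine kinase gene Ckb (0.34) and the peroxisomal membrane gene Pxmp4 (0.34).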

How the data were processed

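The authors deposited raw read counts per gene for all 12 libraries in 1 table with a gene length in bases. Libraries were stranded, per the labels' protocols, and the submitters' processing notes name STAR and mm10. The sources used here do not give the counting tool or its annotation. Entrez identifiers were matched to symbols with RefSeq GRCm38.p6 (17045 of 17090). The genes of the group, the lists and the tests were chosen with earlier results of these data known.

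All 12 libraries were fitted in edgeR 4.0.16 (R 4.3.3), with a mean per time point, TMM factors, filterByExpr (minimum count 10, minimum total 15; 12740 genes kept) and the robust quasi-likelihood F test, adjusted by Benjamini and Hochberg over all genes. The fit leaves 6 residual degrees of freedom (common biological coefficient of variation 0.0737). SEs were taken from the log2 fold change (prior count 0.125) and its F statistic. Where a group had 0 counts, the fold is a bound against 3 counts over the group. With 1 to 3 counts, a ratio with an exact 95% binomial interval is given. Both cover counting error only. Summed levels and closest courses used CPM from the same factors, with a prior count of 2 on the log2 scale.

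Genes outside the group were named by rule: per list, the 3 called genes with the largest change at day 10 against 0 h and the 2 most abundant, and for each tested gene the 3 closest courses. Some genes that the rule picks are not reported here. Cdh1 and Vim were label checks. Ptprc, Cldn7, Grhl2, Foxa1, Elf3, Krt13, Krt16, Krt17, Krt36, Krt78, Zeb1, Zeb2, Twist1, Sparc, Snai1, Snai2, Lama3, Cited1, Erbb3, Syne1, Cebpa, Col17a1 and Des were named after their values were seen. The planned per-kilobase length was replaced by the deposited one.

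On simulated data of 12408 genes with 200 changed at day 10 against 0 h, 86.6% of 1.5-fold, 92.5% of 2-fold and 98.5% of 4-fold changes were recovered, and 10 of 195 calls were unchanged genes. The simulation gave every gene the same spread and changed only genes with a mean CPM above 1. Most of its genes were unchanged, whereas 82.7% were called in the real comparison. These rates need not hold for the real data.

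The alternatives were median-of-ratios and upper-quartile factors, no filter, a mean CPM of at least 1, DESeq2 1.42.0, a replicate block, a prior count of 1, only the 4 libraries compared, other gene lengths (the merged exons were added after seeing the data) and each library left out in turn.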

Additional observations from a re-analysis of the deposited data

How the results depend on the processing

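Of 1076 alternative values of the log2 fold changes of the 6 tested genes, 1048 kept their direction and their side of the threshold, 21 gained a call, 4 lost one (Krt18 at day 7 against day 5), 2 turned in sign and 1 went to 0. These 3 were all at 6 h against 0 h, uncalled in the fit to all 12 libraries and in the alternative: Krt14 was at -0.02 without 0 h replicate 2 and -0.12 without 6 h replicate 1, and Epcam at 0 without 6 h replicate 1. Leaving out libraries in turn, these values ran from -0.12 to 0.34 for Krt14 and from 0 to 4.05 for Epcam. The cause was not tested. The number of genes of the group called at 6 h against 0 h was 1 (Krt18) with only the 4 libraries compared. At day 3 against 6 h it was 6 in place of 5 without 6 h replicate 1, with Epcam added. At day 7 against day 5 it was 5 with no filter and 5 with only the 4 libraries compared, in place of 3. At day 10 against day 7 it was 4 in place of 2 with no filter, with DESeq2 and with only the 4 libraries compared, and ran from 2 to 4 as each library was left out, with 4 without either day 3 replicate. In these the added calls were of Krt8 and Krt14 at day 7 and of Krt7 and Krt8 at day 10. At day 7 against day 5 the count ran from 2 to 4 as each library was left out. In the joint test and in the comparisons of days 3, 5, 7 and 10 with 0 h, all 6 tested genes were called under each alternative that tested them. Replicate numbers were not taken as pairs, since no label says that they mark the experiment. The differences between replicates correlated between -0.091 and 0.193 across the 15 pairs of time points. Such correlations cannot settle whether the libraries were paired. The replicate block gave the same numbers of called genes of the group (6 at day 10 against 0 h and 3 at day 7 against day 5), apart from 1 more at day 10 against day 7, Krt8 (adjusted p = 0.0416 by edgeR). Where a library was left out, its partner was assumed to vary like the other groups. Depth limits Krt5, Krt19 and Epcam before day 5, which rest on a few counts.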
